A study of Homo sapiens with 6 samples.

Results

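The methionine sulfoxide reductases MSRA, MSRB1, MSRB2 and MSRB3 were examined in A549, an established human line from a lung adenocarcinoma. The 4 genes were found by symbol among the 58302 gene rows of the deposited table, and all 4 passed the filter on low counts. MSRB3 was chosen by its counts in this same contrast, as 1 of the genes past the edgeR threshold, so its values are described without a test. The other members were taken by name as its paralogs, not for their values. There were 3 libraries of cells transfected with SNHG5 and 3 of cells transfected with vector. SNHG5 is a long non-coding RNA, the host gene of small nucleolar RNAs, which the series title places in migration, invasion and epithelial-mesenchymal transition. Whether transfection was transient or stable, the promoter used and the time of harvest are not stated in the labels, and no untransfected library was analysed. The labels call the replicates biological and put the cells at passages 6-8.

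Oxidants turn methionine residues of proteins into methionine sulfoxide, in an S and an R form. MSRA reduces the S form and the MSRB enzymes reduce the R form, with thioredoxin and thioredoxin reductase supplying the electrons. MSRB1 is a selenoprotein of the cytosol and nucleus, MSRB2 is mitochondrial, and MSRB3 is directed to the endoplasmic reticulum or to mitochondria depending on the splice form. Loss of MSRB3 is known as a cause of inherited deafness.

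The MSRB genes differ at the codon for the catalytic residue, which is shown here because it marks what sets the selenoprotein MSRB1 apart from MSRB2 and MSRB3. A principal GENCODE release 29 transcript of each gene on GRCh38 was used (ENST00000361871 for MSRB1, ENST00000355192 for MSRB3 and ENST00000376510 for MSRB2). That MSRB1 transcript has an in-frame TGA at codon 95, read as selenocysteine. The other protein-coding transcripts of MSRB1 in that release have no in-frame TGA. At the aligned place the MSRB3 and MSRB2 transcripts have the cysteine codon TGC, at codons 158 and 169. The 63 bases round that codon, 5′ to 3′ on the coding strand with the codon in capitals, lie at chr12:65463185-65463247 (plus strand) for MSRB3, at chr16:1940782-1940844 (minus strand) for MSRB1 and at chr10:23120788-23120850 (plus strand) for MSRB2, each within 1 exon.
MSRB3: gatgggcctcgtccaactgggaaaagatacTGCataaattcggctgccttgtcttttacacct
MSRB1: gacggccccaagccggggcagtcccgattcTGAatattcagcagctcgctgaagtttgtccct
MSRB2: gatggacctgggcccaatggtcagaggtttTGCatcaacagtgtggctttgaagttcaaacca
Over these 63 positions MSRB3 shared 38 bases with MSRB2 and 27 with MSRB1, and MSRB1 shared 29 with MSRB2.

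Depth ran from 13378079 to 16999604 counts per library. Levels of 1 gene are given as CPM, counts per library scaled to a total that is the same for all. A floor of 3 counts amounts to 0.176 to 0.224 CPM by the unscaled library totals. SNHG5 itself stood at 153.3, 126.5 and 62.9 CPM in SNHG5 libraries 1, 2 and 3, against 61.0, 101.3 and 55.1 CPM in vector libraries 1, 2 and 3 (edgeR quasi-likelihood adjusted p 0.746). Each SNHG5 library nevertheless had more SNHG5 RNA than the vector library with its number, the log2 difference being 1.33 for replicate 1, 0.32 for replicate 2 and 0.19 for replicate 3. The library labelled SNHG5 3 lay within the range of the controls for the transfected gene, and all directions below are between libraries as labelled. The epithelial keratins KRT8, KRT18 and KRT7 ran from 743.3 to 2732 CPM, while EPCAM, another epithelial marker, was at 2.27 to 4.19 CPM. The 5 epithelial markers summed to 3597 to 5995 CPM in the SNHG5 libraries and 6171 to 6623 CPM in the vector libraries, without overlap. Taken singly, only 1 of the 5, KRT8, had groups that did not overlap, against 13.6% of all genes tested. Their log2 differences were -0.65 for KRT8, -0.30 for KRT18, -0.35 for KRT7, -0.86 for CDH1 and 0.32 for EPCAM, and 0 of the 5 passed in edgeR (adjusted p of 0.746 or more, 1 with an unadjusted p under 0.05), DESeq2 or limma-voom. Their part in the results below was not tested. The leukocyte, endothelial and fibroblast markers summed to 1.27 to 2.85 CPM in the SNHG5 libraries and 2.20 to 2.75 CPM in the vector libraries, with PTPRC, CD3E and CDH5 at 0 counts throughout.

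MSRB3 (ENSG00000174099, GRCh38 chromosome 12, 65278643 to 65488244 in the deposited table, plus strand) was the member that set the groups apart. It had 1225, 998 and 1654 counts in SNHG5 libraries 1, 2 and 3, or 74.3, 72.6 and 96.3 CPM. In vector libraries 1, 2 and 3 it had 113, 124 and 183 counts, or 7.53, 8.13 and 11.3 CPM. The lowest SNHG5 library thus lay well above the highest vector library, and the groups did not overlap. The means were 81.1 ± 13.2 CPM with SNHG5 and 8.98 ± 2.01 CPM with vector (SD, n = 3 each), a fitted difference of 9.02-fold (log2 3.17, SE 0.25). Between same-numbered libraries the log2 difference was 3.28, 3.14 and 3.08 for replicates 1, 2 and 3. It was 3.03 without SNHG5 3 and 3.11 without vector 2. The highest MSRB3 level was in SNHG5 3, the library of that group with the least SNHG5 RNA, where MSRB3 stood at 96.3 CPM beside 62.9 CPM of SNHG5. These are RNA levels of whole cultures, in which a change in the share of expressing cells and a change in RNA per cell cannot be told apart. Counts per gene also do not separate the reticulum and mitochondrial forms of MSRB3.

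MSRA (ENSG00000175806, chromosome 8, 10054268 to 10428891, plus strand), the reductase for the S form, had nearly level values. It stood at 10.9, 9.83 and 9.02 CPM in SNHG5 libraries 1, 2 and 3 and at 11.3, 10.3 and 9.67 CPM in vector libraries 1, 2 and 3. The groups overlapped, and each SNHG5 library was slightly below the vector library of the same number. The log2 difference was -0.07 with a 95% interval from -0.58 to 0.44 (edgeR quasi-likelihood adjusted p 0.931). MSRA varied least of the 4 genes between replicates, with a coefficient of variation of 9.61% among SNHG5 and 7.71% among vector libraries, beside 7.99% and 7.88% from counting error alone.

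MSRB1 (ENSG00000198736, chromosome 16, 1938210 to 1943326, minus strand), the selenoprotein, varied most. It stood at 8.68, 12.4 and 22.4 CPM in SNHG5 libraries 1, 2 and 3 and at 14.7, 33.6 and 19.1 CPM in vector libraries 1, 2 and 3. SNHG5 3 and vector 2 were the high libraries of their groups, the groups overlapped, and the coefficients of variation were 48.7% with SNHG5 and 44.2% with vector. The log2 difference of -0.63 (SE 0.43, 95% interval -1.62 to 0.36) did not pass (edgeR quasi-likelihood adjusted p 0.749). It depended on single libraries, at -1.09 without SNHG5 3 (edgeR adjusted p 0.2) and at -0.22 without vector 2 (edgeR adjusted p 0.932).

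MSRB2 (ENSG00000148450, chromosome 10, 23095506 to 23122013, plus strand), the mitochondrial enzyme, stood at 6.37, 5.97 and 8.38 CPM in SNHG5 libraries 1, 2 and 3 and at 5.13, 8.99 and 6.90 CPM in vector libraries 1, 2 and 3. The groups covered almost the same range. The log2 difference was -0.02 with a 95% interval from -0.71 to 0.67 (edgeR quasi-likelihood adjusted p 0.99). The intervals of MSRA, MSRB1 and MSRB2 do not show that these paralogs were level. No test of the paralogs against MSRB3 was made, because MSRB3 was chosen for its difference.

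Of the 4 members, 1 passed the edgeR threshold, MSRB3, against 0.128% of the 15631 genes tested, and 1 had groups that did not overlap, against 13.6% of all genes tested. MSRB3 was chosen for this contrast, so nothing is read from these counts. In order of the signed log2 difference MSRB3 was the 4th highest gene among those tested, and by absolute size the 38th.

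**Figure D1:**
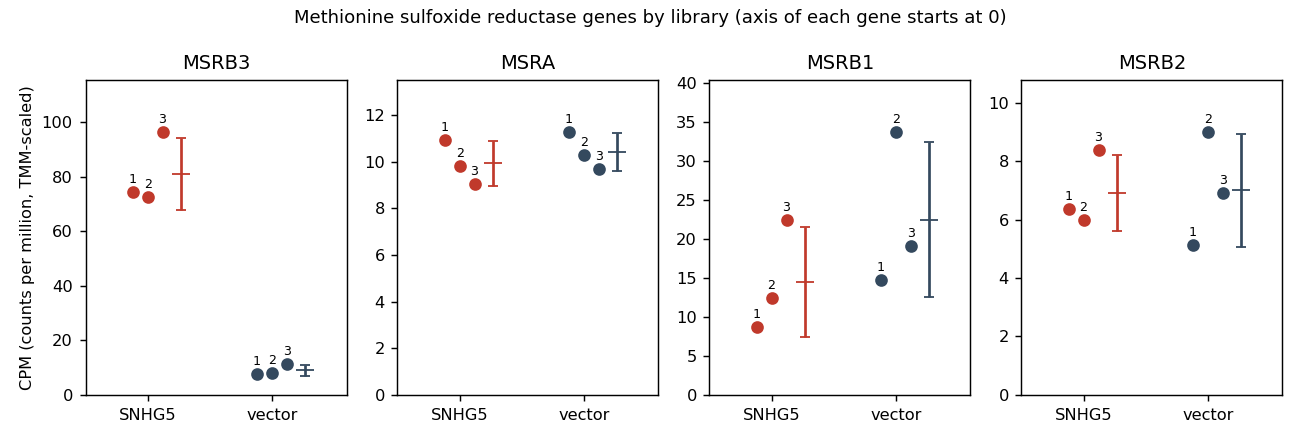
CPM of MSRB3, MSRA, MSRB1 and MSRB2 in each library (points, numbered by replicate; vertical axis from 0 for each gene) with the mean and SD of 3 libraries per group. MSRB3 runs from 72.6 to 96.3 CPM in SNHG5 libraries and from 7.53 to 11.3 CPM in vector libraries, while the groups of the other genes overlap.

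Levels of different genes were set side by side per length, as FPKM (the fragment count divided by gene length and library size). The order of the 4 genes changed at MSRB3. In the SNHG5 libraries MSRB3 was the highest at 5.49 ± 0.934 FPKM, followed by MSRB1 at 3.23 ± 1.61, MSRB2 at 2.76 ± 0.534 and MSRA at 1.37 ± 0.11 FPKM (SD, n = 3). In the vector libraries MSRB1 led at 4.91 ± 2.38 FPKM, then MSRB2 at 2.74 ± 0.855 and MSRA at 1.40 ± 0.122, and MSRB3 came last at 0.589 ± 0.119 FPKM (SD, n = 3). MSRB3 was thus first of 4 in each SNHG5 library and last of 4 in each vector library. Among the neighbours in these orders, MSRB1 and MSRB2 did not differ beyond their spread in the SNHG5 libraries, where the order of the pair turned between libraries. In the vector libraries the ranges of MSRB1 (3.12 to 7.61 FPKM) and MSRB2 (1.96 to 3.65 FPKM) overlapped as well, although MSRB1 was above MSRB2 within each of the 3. Across SNHG5 libraries the ranges of MSRB3 (4.92 to 6.57 FPKM) and MSRB1 (1.89 to 5.01 FPKM) also touched. Among all tested genes ranked by FPKM, MSRB3 lay at percentiles 63.0, 62.6 and 70.3 in SNHG5 libraries 1, 2 and 3 and at 15.8, 18.1 and 21.6 in vector libraries 1, 2 and 3, with no overlap. Over all 6 libraries MSRA lay between 30.5 and 35.6, MSRB2 between 41.5 and 55.1 and MSRB1 between 40.9 and 72.2, each with overlapping groups.

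As a share of the summed FPKM of the family, MSRB3 made up 45.7%, 43.0% and 40.5% in SNHG5 libraries 1, 2 and 3 and 6.91%, 4.22% and 8.38% in vector libraries 1, 2 and 3. MSRB1 made up 17.5% to 30.9% in the SNHG5 libraries and 44.2% to 57.4% in the vector libraries. The sum itself did not separate the groups, at 10.8, 11.6 and 16.2 FPKM with SNHG5 and 7.06, 13.3 and 8.58 FPKM with vector, and MSRB1 made up most of the vector 2 value. The gene lengths behind the deposited FPKM were 14966 bases for MSRB3, 7336 for MSRA, 4554 for MSRB1 and 2533 for MSRB2. These were from 1.23 to 2.11 times the union of their exons in GENCODE release 29. The lengths of MSRA, MSRB1 and MSRB2 equal the sum of their distinct exons in that release. For MSRB3 that sum is 20900 bases, so its deposited length and its union come from different gene models. With that union as the length, MSRB3 made up 43.9% to 50.7% in SNHG5 libraries and 4.66% to 9.48% in vector libraries, and its first and last places did not change. MSRB1 was first in each vector library with the deposited length, with the union and with the longest coding transcript as the length. The order of MSRA and MSRB2, and the place of MSRB1 in the SNHG5 libraries, changed with the length used.

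**Figure D2:**
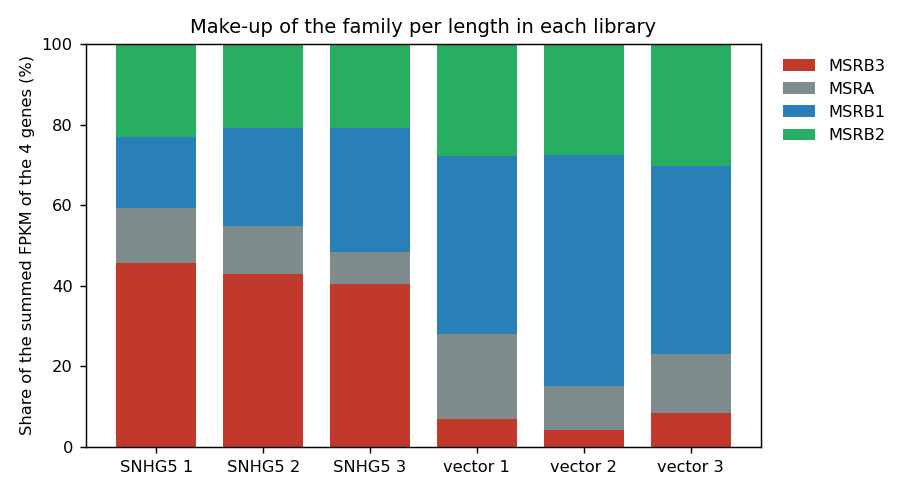
Share of each gene in the summed FPKM of the 4 methionine sulfoxide reductases, in percent, per library (stacked bars, SNHG5 libraries left of vector libraries). MSRB3 takes 40.5% to 45.7% in SNHG5 libraries and 4.22% to 8.38% in vector libraries.

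Within a library, the ratio of MSRB3 to a paralog does not depend on library scaling. The ratio to MSRB2, its nearest relative over the bases shown above, was 1.97, 2.06 and 1.94 in SNHG5 libraries 1, 2 and 3 and 0.248, 0.153 and 0.277 in vector libraries 1, 2 and 3. The SNHG5 values lay close together. The ratio to MSRA was 3.34, 3.62 and 5.23 in the SNHG5 libraries and 0.328, 0.387 and 0.571 in the vector libraries. The ratio to MSRB1 was the least even, at 2.61, 1.78 and 1.31 in SNHG5 libraries 1, 2 and 3 and at 0.156, 0.0736 and 0.18 in vector libraries 1, 2 and 3. The ratios were above 1 in the SNHG5 libraries and below 1 in the vector libraries. The 3 ratios of a library share its MSRB3 value, and MSRB3 was chosen for its difference. Nothing is therefore read from this split. Against the sum of the 3 paralogs, the mean log2 ratio was -0.40 ± 0.15 with SNHG5 and -3.90 ± 0.54 with vector (SD, n = 3 each), a difference of 3.50, or 11.3-fold. This stands beside 9.02-fold for MSRB3 alone and a fitted log2 difference of -0.63 for MSRB1, the paralog with the highest mean FPKM.

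**Figure D3:**
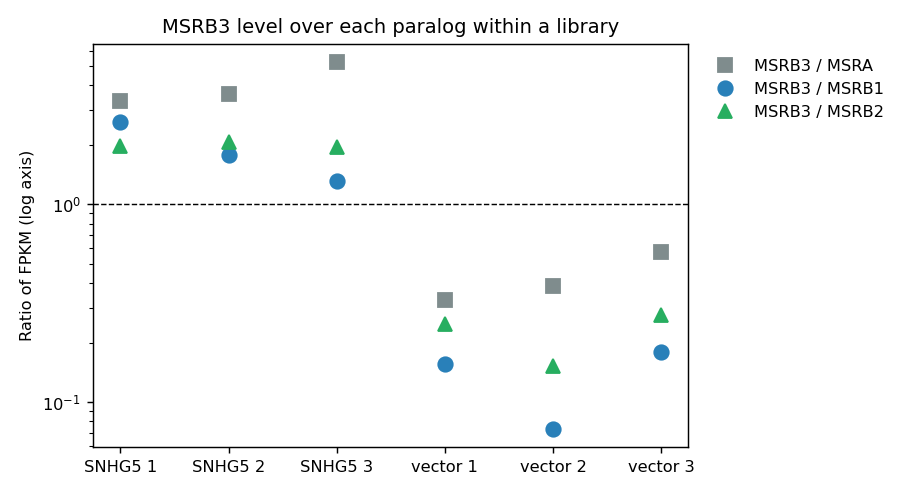
Ratio of the FPKM of MSRB3 to that of MSRA, MSRB1 and MSRB2 in each library (log axis; dashed line at a ratio of 1). Points of the SNHG5 libraries lie at 1.31 to 5.23 and those of the vector libraries at 0.0736 to 0.571.

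The kit does not mark the strand, so reads of overlapping genes could be counted with a member. KRT18P60, AC025419.1 and AC026124.1 overlap the MSRB3 span and had at most 6 counts in any library, against at least 113 for MSRB3. Of these, AC025419.1 runs past the end of MSRB3. It alone shares exon bases with MSRB3 (88, on the opposite strand). AC112673.1, within the MSRA span, had 0 counts throughout. The pseudogene MSRB1P1 had 0 counts in every library. Of the protein-coding genes within 500 kb of MSRB3, WIF1, an inhibitor of Wnt ligands, had 0 counts in every library. By the unscaled library totals this allows up to 0.176 to 0.224 CPM. LEMD3, an inner nuclear membrane protein whose gene lies 30.3 kb from MSRB3, stood at 33.4, 33.0 and 36.8 CPM with SNHG5 and 31.8, 31.2 and 29.4 CPM with vector (log2 difference 0.16, SE 0.17, edgeR adjusted p 0.802). These groups did not overlap, though the difference was small beside that of MSRB3. HMGA2, a chromatin protein 335.9 kb away, stood at 200.5, 161.4 and 28.1 CPM in SNHG5 libraries 1, 2 and 3 and at 64.4, 38.3 and 31.6 CPM in vector libraries 1, 2 and 3. HMGA2 was high in SNHG5 1 and 2 and at the level of the controls in SNHG5 3, the library in which MSRB3 was highest (log2 difference 1.54, SE 0.64, edgeR adjusted p 0.743). TBC1D30 was at 0.699 to 2.04 CPM with SNHG5 and 1.00 to 1.11 CPM with vector (edgeR adjusted p 0.801). ZEB1, a transcription factor of epithelial-mesenchymal transition tied to MSRB3 in breast cell studies, stood at 76.2, 107.6 and 42.8 CPM with SNHG5 and 64.6, 26.7 and 34.6 CPM with vector. The ZEB1 groups overlapped (log2 difference 0.85, SE 0.42, edgeR adjusted p 0.746).

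The genes whose profile over the 6 libraries was nearest to that of MSRB3 were found among 11538 genes. The measure was the root mean square difference of log2 CPM deviations from the gene mean. Genes with a clone-type name, such as AC025419.1, were left out of this ranking. The nearest were therefore sought only among the rest. They were ZNF518A, a zinc finger protein, at 0.63, MRFAP1, a nuclear protein that binds chromatin regulators of the MORF4 family, at 0.73, and BLOC1S6, a subunit of a complex in endosome traffic, at 0.79. RNF146, a ubiquitin ligase, followed at 0.81 and LYRM7, an assembly factor of respiratory complex III, at 0.87. All 5 have groups that do not overlap, which the measure favours. BLOC1S6 stood at 47.5, 44.8 and 38.1 CPM in SNHG5 libraries 1, 2 and 3 and at 17.6, 5.18 and 6.84 CPM in vector libraries 1, 2 and 3. LYRM7 stood at 27.6, 23.6 and 26.1 CPM with SNHG5 and 8.06, 7.41 and 13.3 CPM with vector. Their fitted log2 differences, 2.14 and 1.43, were smaller than the 3.17 of MSRB3. In SNHG5 3, where MSRB3 was highest, MRFAP1 was also at its highest among the SNHG5 libraries, while ZNF518A, BLOC1S6 and RNF146 were at their lowest.

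**Figure D4:**
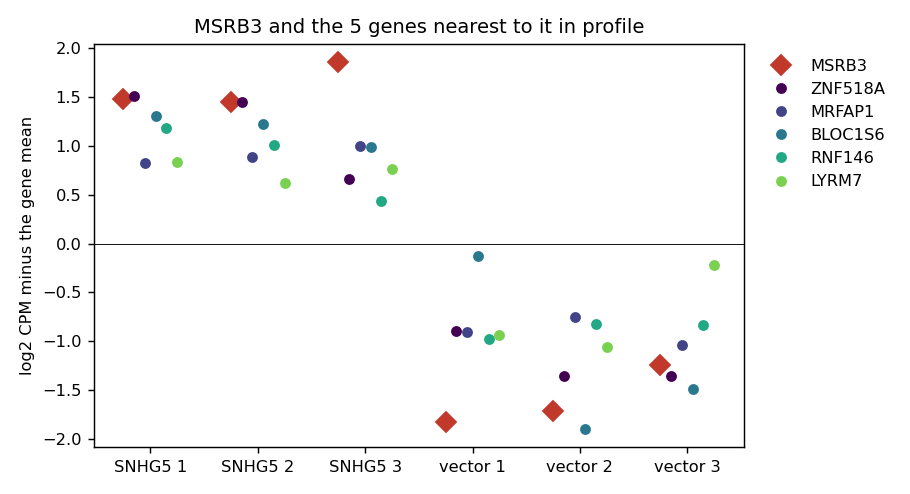
Log2 CPM of MSRB3 (diamonds) and of the 5 genes nearest to it in profile (circles), each minus the gene's mean over the 6 libraries. All 6 genes are above their mean in the SNHG5 libraries and below it in the vector libraries, and in SNHG5 3 MSRB3 and MRFAP1 are at their highest within that group while ZNF518A, BLOC1S6 and RNF146 are at their lowest.

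The rest of the pathway was read from 6 lists with 94 genes, of which 80 were tested. In edgeR 0 of the 80 passed in either direction, and 1 had an unadjusted p under 0.05, GLRX, against 6.49% of all genes tested. limma-voom called 0 of the 80, against 0.154% of all genes. DESeq2 called 1, again GLRX, against 1.7% of all genes. The list medians of the log2 difference lay between -0.17 and -0.05, beside 0.01 over all genes tested. A gene that missed the threshold is not thereby shown to be level.

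Among 11 thioredoxin and glutaredoxin genes, all tested, the electron donors of the reductases showed no call. TXN, cytosolic thioredoxin, stood at 248.1, 273.2 and 326.2 CPM with SNHG5 and 215.0, 616.3 and 328.3 CPM with vector, where vector 2 stood apart (log2 difference -0.45, SE 0.37, edgeR adjusted p 0.755). TXNRD1, the cytosolic thioredoxin reductase, was abundant at 2041, 2458 and 1552 CPM with SNHG5 and 1590, 1695 and 1577 CPM with vector (log2 difference 0.32, SE 0.23, edgeR adjusted p 0.749). The mitochondrial TXN2 and TXNRD2 had log2 differences of -0.26 and -0.12. GLRX, a glutaredoxin that removes glutathione from proteins, stood at 22.1, 28.6 and 24.4 CPM in the SNHG5 libraries and 38.6, 73.9 and 66.0 CPM in the vector libraries. The GLRX groups did not overlap, and the log2 difference of -1.25 (SE 0.27) had an adjusted p of 0.181 in edgeR and 0.00591 in DESeq2. TXNIP, an inhibitor of thioredoxin, was the most uneven, at 22.8, 30.6 and 1.05 CPM with SNHG5 and 9.40, 10.1 and 2.71 CPM with vector (log2 difference 1.29, SE 0.96, edgeR adjusted p 0.749).

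Of 16 enzymes that remove peroxide and superoxide 14 were tested and 0 called. The glutathione peroxidase GPX2 had the largest difference, -0.66, with 84.6 CPM in vector 2 and 24.9 to 30.1 CPM in the 5 other libraries. GPX1 was at -0.52, again with the highest level in vector 2 (218.3 CPM), and the mitochondrial superoxide dismutase SOD2 was at 0.33. Of 18 genes of the methionine cycle and transsulfuration 14 were tested and 0 called. MAT2B, a regulatory subunit of the enzyme that makes S-adenosylmethionine, was at a log2 difference of -0.37, and AHCYL1, a relative of adenosylhomocysteinase, at -0.35.

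MSRB1 depends on the machinery for selenocysteine, and of 21 selenoproteins and insertion factors 17 were tested and 0 called. The largest log2 differences were -0.60 for SELENOM, a reticulum selenoprotein, 0.51 for SEPSECS, which makes selenocysteine on its tRNA, and -0.47 for SELENOO, a mitochondrial selenoprotein. Of 14 MICAL monooxygenases, which oxidize actin methionines, and proteins known to be oxidized at methionine 10 were tested and 0 called. MICAL1, MICAL2 and MICAL3 had log2 differences of 0.11, 0.07 and -0.22. The largest in that list were -0.45 for CALM3 and 0.35 for CALM2, which encode calmodulin, and -0.42 for ACTG1, a cytoplasmic actin.

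All 14 oxidoreductases of the endoplasmic reticulum, a compartment shared with MSRB3, were tested and 0 were called. The membrane thioredoxin relatives TMX3 and TMX1 were at 0.50 and -0.36, and the disulfide isomerase PDIA4 at -0.41. The groups did not overlap for TMX3, TMX1 and ERO1A, the oxidase that recharges disulfide isomerase. That is 3 of 14 genes, against 13.6% of all genes tested. In the other lists it was 1 of 11 thioredoxin and glutaredoxin genes, and 0 of 14 for peroxide and superoxide removal. It was 0 of 14 for the methionine cycle, 0 of 17 for selenoproteins and 0 of 10 for the MICAL list. ERO1A was higher with SNHG5 (log2 difference 0.31). TMX1 was lower, its highest SNHG5 library at 116.0 CPM and its lowest vector library at 116.4 CPM. TMX3 stood at 73.5, 70.5 and 83.9 CPM in the SNHG5 libraries and 61.4, 32.5 and 67.7 CPM in the vector libraries (edgeR adjusted p 0.746).

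**Figure D5:**
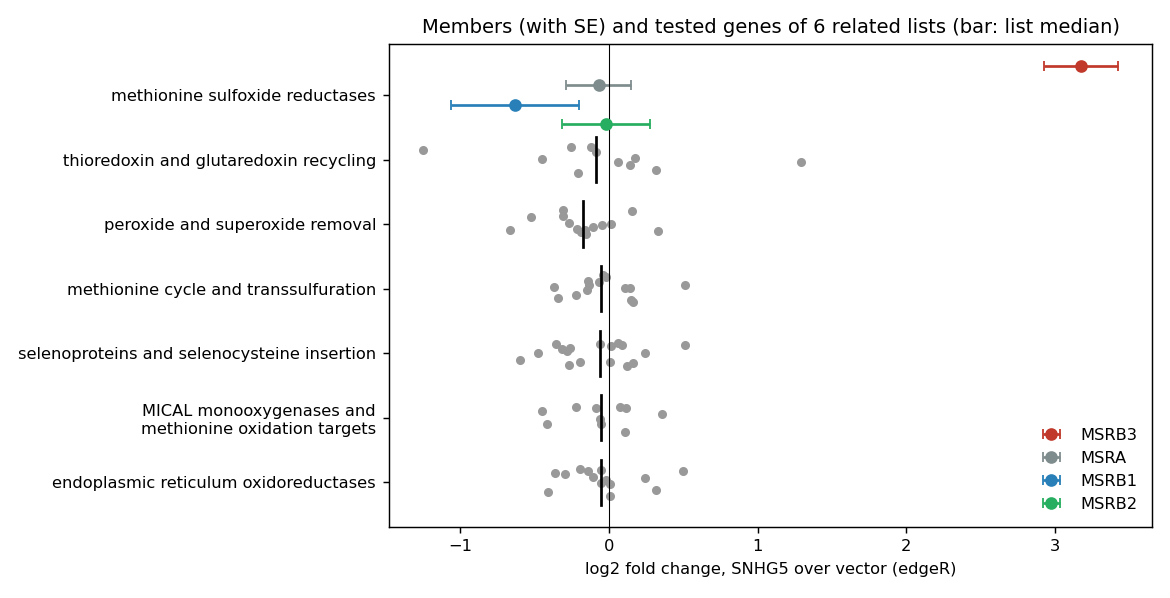
Log2 fold change of SNHG5 over vector for the 4 members (points with SE) and for the 80 tested genes of 6 related lists (grey points; black bar, list median). MSRB3 lies at 3.17, and the genes of the lists lie between -1.25 for GLRX and 1.29 for TXNIP.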

How the data were processed

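RNA of 6 A549 cultures was extracted on silica columns and sequenced from paired-end TruSeq libraries, per the labels' protocols. FastQC, HISAT2 and GRCh38 are named in the submitters' processing notes, and no counting program or strand setting is stated there. The table that the authors deposited gives, for every library, raw counts and FPKM per gene. For the members, the deposited FPKM was the count over a fixed gene length and over the total of the library. Identifiers were matched to GENCODE release 29 (99.5% found, 97.5% of those at the same position). Coordinates of genes are those of the deposited table, and the position of MSRB3 there differs from GENCODE release 29. The bases shown come from GENCODE release 29 transcripts, aligned through their translations with Biopython 1.88.

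Counts were fitted with edgeR 4.0.16 in R 4.3.3 (TMM factors, filterByExpr, robust quasi-likelihood test, 15631 genes), two-sided, with Benjamini-Hochberg adjustment over all genes tested and a threshold of 0.05. CPM use TMM-scaled totals. A standard error is the log2 difference divided by the square root of its F statistic. Alternatives were a replicate block, leaving out each library, RLE factors, a filter of 1 count, a filter of CPM over 1 in 3 libraries, DESeq2 1.42.0 and limma-voom 3.58.1. The edgeR step was tested on simulated data. Replicates differed by 26.2 to 94.5 chi-square units per degree of freedom, far beyond sampling noise, and each library counted as 1 replicate. Libraries of the same number deviated together from their group means (correlation 0.35, 0.16 and 0.29 for replicates 1, 2 and 3). By a rule of over 0.1 in every pair the numbers pair the libraries, and the labels' protocol speaks of pairs of transfected cells. SNHG5 2 with vector 1 also exceeded 0.1, at 0.12, while the other unlike numbers ran from -0.34 to 0.04. The values printed are from the fit without the block unless the block is named.

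The members and lists were chosen with earlier results of these data known. Named were the 4 members, SNHG5, ZEB1, protein-coding genes within 500 kb of MSRB3, TXN, TXN2, TXNRD1 and TXNRD2, the 5 nearest profiles among genes with a mean log2 CPM of at least 2, and for each list any called gene and the 3 with the largest difference. MICAL1, MICAL2, MICAL3, ERO1A, the marker genes and the genes overlapping a member were named outside that rule. The profile ranking left out genes with a clone-type name. Of the genes the rule takes, some are not reported here. Floors cover counting error only.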

Additional observations from a re-analysis of the deposited data

How the results depend on the processing

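MSRB3 was higher with SNHG5 in all 12 alternatives, with a log2 difference of 3.03 to 3.37 without 1 library, and its log2 ratio to the paralogs differed by 3.18 to 3.84 in 11 alternatives. Since the groups do not overlap, leaving out a library could not turn these signs. The edgeR adjusted p of MSRB3, by which it had been chosen, missed the threshold in 4 of the 6 fits without 1 library (without SNHG5 1, SNHG5 2, vector 2 or vector 3), reaching 0.106. MSRA ran from -0.14 to -0.01 and MSRB1 from -1.09 to -0.22, with no call in any alternative. MSRB2, uncalled throughout, turned in sign in 5 of 12, between -0.20 and 0.20. Genes past the threshold numbered 4 higher and 16 lower. DESeq2 gave 20 higher and 246 lower, the replicate block 69 lower and no filter 72 lower. Without 1 library there were 0 to 20 higher and 0 to 144 lower. Leaving out SNHG5 2, vector 2 or vector 3 gave 0 in either direction, with 635, 871 and 742 genes at an unadjusted edgeR p under 0.05. Of the listed genes, DESeq2 called 1 in place of 0, and 0 were called in each fit without 1 library. The replicate block changed no call of a member or listed gene, MSRB3 standing at 3.18 (SE 0.19) and MSRB1 at -0.65 (SE 0.35) with it. The causes were not tested. Members had 77 to 1654 counts per library, and for MSRA the spread between libraries was about as large as counting error alone.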

Other observations

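Vector library 2 was the highest of the 6 libraries for 28 of the 80 listed genes (35.0%), against 25.8% of all genes tested, and GPX2, GPX1, TXN and SELENOM were among them. MSRB1, not on a list, was also highest there. The same library was the lowest for 11 of the 80 (13.8%), against 26.7% of all genes tested. SNHG5 library 1 was the lowest for 22 of the 80 (27.5%), near its 22.2% of all genes tested. It was the highest for 10 of the 80 (12.5%), against 23.1% of all genes tested. Vector library 1 was the lowest for 16 of the 80 (20%), against 9.6% of all genes tested.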
